A study of Homo sapiens with 6 samples.

Results

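Interferon gamma signalling was followed through 9 genes of the 57290 in the annotation of the deposited data: the ligand IFNG, the antisense gene IFNG-AS1, the receptor chains IFNGR1 and IFNGR2, the kinases JAK1 and JAK2, the transcription factors IRF1 and IRF2, and the inhibitor SOCS1. The genes were taken by name and their transcript values were summed per gene. The set was chosen partly by the TPM values of IFNG and IRF1 in these same libraries, both higher with TAZ, so the values of those 2 genes are given as a description, with no test. KMM1, an established human multiple myeloma line, received a lentivirus carrying TAZ in 3 libraries and the empty WPI vector in 3 control libraries. All cells had thus been exposed to a lentivirus, and polyadenylated RNA was taken 4 days afterwards. TAZ is a transcriptional co-activator of the Hippo pathway and is encoded by WWTR1; which promoter drives it in the vector is not stated.

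Interferon gamma is a cytokine made mainly by T cells and natural killer cells. It binds a receptor of IFNGR1 and IFNGR2 chains, which carry the kinases JAK1 and JAK2. These kinases activate transcription factors that bind gamma-activated sites (GAS) and switch on IRF1, which in turn binds interferon-stimulated response elements (ISRE) of further genes. IRF2 binds the same elements and often opposes IRF1. SOCS1 is induced by the pathway and inhibits JAK1 and JAK2.

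The 250 bases upstream of the annotated start were read for the ligand, for the transcription factor IRF1 and for the inhibitor SOCS1, because the upstream windows of these genes were the ones among the members that held a GAS or ISRE pattern. Sequences are from RefSeq (GRCh38.p14), where 8 of the 9 members had a window, IRF2 being the exception. They are printed 5′ to 3′ on the gene's strand, which was the minus strand for all 3, from chr5:132490774-132491023 for IRF1, chr12:68159741-68159990 for IFNG and chr16:11256205-11256454 for SOCS1. Capitals mark a match to GAS (TTCNNNGAA) in IRF1 and IFNG and to ISRE, searched as GAAA blocks with any 2 bases between them, in SOCS1.
IRF1: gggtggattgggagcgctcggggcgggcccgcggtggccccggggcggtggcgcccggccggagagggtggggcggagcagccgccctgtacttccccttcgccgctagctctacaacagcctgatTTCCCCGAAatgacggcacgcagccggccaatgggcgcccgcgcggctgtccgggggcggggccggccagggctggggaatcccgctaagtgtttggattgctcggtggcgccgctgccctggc
IFNG: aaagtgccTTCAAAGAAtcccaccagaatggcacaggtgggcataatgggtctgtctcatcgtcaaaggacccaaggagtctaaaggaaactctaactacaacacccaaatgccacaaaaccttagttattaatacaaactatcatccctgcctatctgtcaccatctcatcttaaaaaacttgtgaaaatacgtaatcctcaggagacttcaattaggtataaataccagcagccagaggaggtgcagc
SOCS1: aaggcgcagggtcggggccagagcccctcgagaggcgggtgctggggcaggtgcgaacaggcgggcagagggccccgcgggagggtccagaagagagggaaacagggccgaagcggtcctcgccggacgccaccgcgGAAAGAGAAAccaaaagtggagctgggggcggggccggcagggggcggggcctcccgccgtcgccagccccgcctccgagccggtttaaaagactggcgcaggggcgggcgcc

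Relative to the annotated start, the GAS match began at position -124 in IRF1 and at -242 in IFNG, and the ISRE match began at -113 in SOCS1. On either strand, GAS was found in 6.57% and ISRE in 3.02% of 35116 RefSeq windows of the same length. The NF-kB pattern, GGG and CC with any 5 bases between them, was held by 54.4% of all windows. It was found 6 times in the IRF1 window and 4 times each in the SOCS1 window, the IFNGR2 window and 1 JAK1 window. IFNGR1 and JAK2 had at most 3 in a window, and IFNG and IFNG-AS1 had 0. Some matches overlapped each other. The TEAD pattern GGAATG, which 11.9% of windows held, was found in 1 of the 3 JAK1 windows and in no other member's window. The AP-1 pattern TGANTCA was in no member's window, against 6.57% of all windows. The windows also differed in base composition, with 74.4% G and C for IRF1 and 42.4% for IFNG. A match describes letters and was not tested as a binding site.

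Levels are in TPM, a transcript's mean read depth as a proportion of the summed depth of all transcripts in its library, scaled by the median of ratios; depth per base lets genes of different length be compared. Libraries are given in the order 1, 2, 3. Differences are on log2(scaled TPM + 1), TAZ minus control, with a standard error; this scale understates the change of genes near or below 1 TPM. The test was limma over the 19259 genes averaging 1 TPM or more, with p-values adjusted by Benjamini and Hochberg over all of them and called at 0.05. The libraries held 1099.95 to 2033 megabases of aligned sequence. WWTR1 had 2.35, 1.21 and 1.40 in the controls and 365, 138 and 145 with TAZ, a difference of 6.22 ± 0.41 (limma adjusted p = 8.3e-04). Control library 3 correlated at 0.896 and 0.925 with the other controls and at 0.918 with TAZ library 1, so results that moved without it are given below. Separate cultures are not named in the labels, so each p-value reflects the spread among these libraries, which may be technical. Libraries were sequenced 2 to a chip; the labels do not say which, so an effect of chip was not tested.

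IFNG (ENSG00000111537.4, hg19 chromosome 12, 68548548 to 68553527, minus strand) had 0, 0.124 and 0.285 scaled TPM in the controls and 5.10, 4.24 and 5.36 in the TAZ libraries. Every TAZ library lay above every control. The group means were 0.136 ± 0.143 and 4.90 ± 0.59 (SD, n = 3), with a difference of 2.38 ± 0.20 on the log2 scale. IFNG passed the limit on mean TPM through its values in the TAZ group. The sequence behind these levels was small: 0, 0.153 and 0.188 kilobases aligned to IFNG in the controls, against 5.07, 3.27 and 4.73 kilobases in the TAZ libraries. The cytokine has 1 annotated transcript here, ENST00000229135.3, with 4 exons. Counted from the lowest coordinate, exon 4 (68553282 to 68553527), the first to be transcribed, had a mean read depth per base of 4.54, 4.15 and 7.51 in the TAZ libraries, against 0, 0.0725 and 0.0122 in the controls. Exon 1 (68548548 to 68549267), which holds the 3′ end, had 4.39, 2.85 and 3.35 in the TAZ libraries and at most 0.183 in a control. Signal was thus present at both ends of the transcript. All 4 exons were above 0 in TAZ libraries 1 and 3, and 3 of 4 in TAZ library 2, against 0, 3 and 4 in the controls. The groups overlapped at exon 3 (68551971 to 68552039), with 0, 0 and 0.685 in the controls and 1.77, 0 and 1.86 in the TAZ libraries.

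IFNG-AS1 (ENSG00000255733.1, chromosome 12, 68383225 to 68628466, plus strand), a long noncoding RNA gene known for its link to IFNG expression in T cells, went the opposite way. It had 10.5, 8.46 and 4.93 scaled TPM in the controls and 1.88, 3.11 and 2.60 in the TAZ libraries. The groups did not overlap, and control library 3 was the lowest of the controls. The difference of -1.31 ± 0.29 had an interval of 2 standard errors on either side from -1.88 to -0.73. It did not pass the test over all genes (limma adjusted p = 0.076), and it passed without control library 3 (-1.59, adjusted p = 0.0242; over 13 alternatives the adjusted p ran from 0.0242 to 0.232). The order of the pair was therefore reversed between groups: every control had more IFNG-AS1 than IFNG per length, and every TAZ library had more IFNG than IFNG-AS1. Almost all IFNG-AS1 signal lay on a single exon of 1466 bases (68413642 to 68415107) of ENST00000538665.1, with a depth of 11.1, 9.75 and 3.26 in the controls and 1.88, 2.41 and 2.296 in the TAZ libraries. The other 3 exons of that transcript were listed at 0 in all 6 libraries, so the values describe this exon more than the spliced RNA. IFNG and IFNG-AS1 shared no exon bases.

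**Figure D1:**
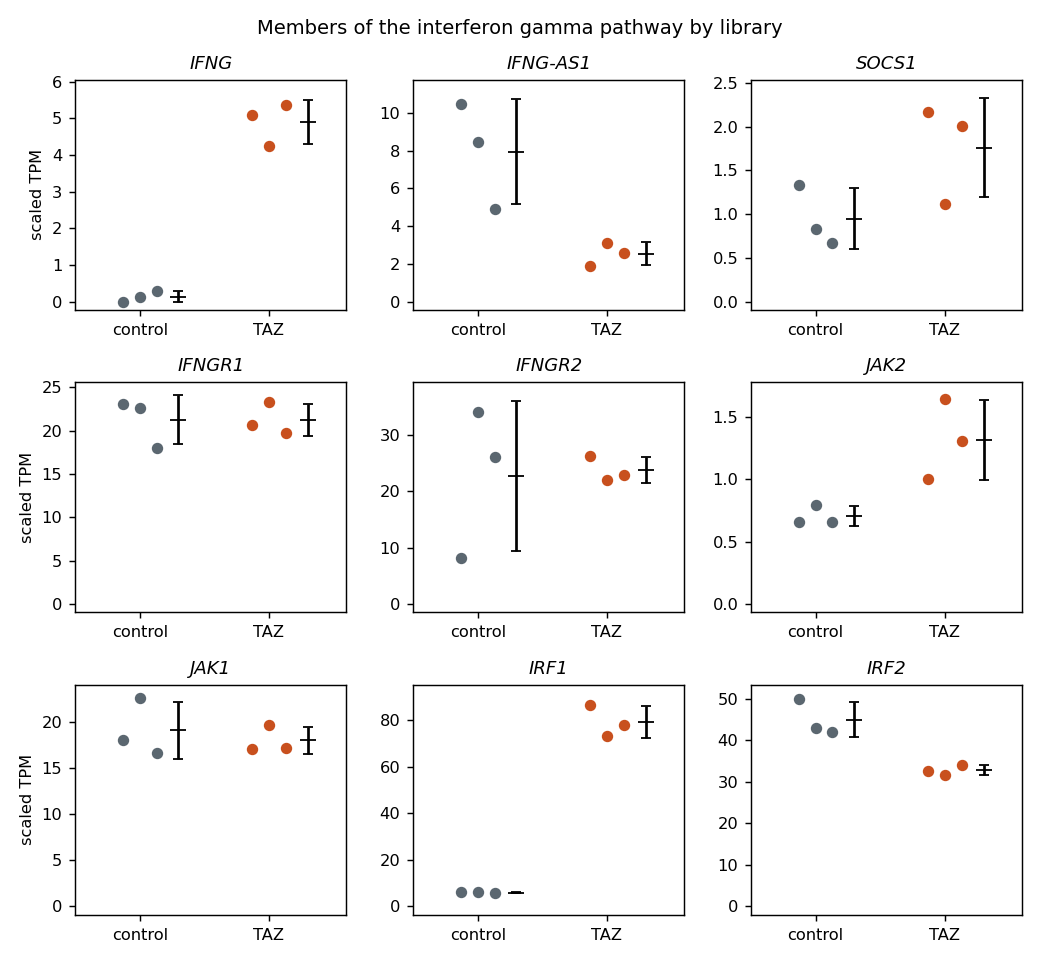
Scaled TPM of each gene (vertical axes, linear, different ranges) in the 3 control libraries (grey) and 3 TAZ libraries (orange), libraries 1 to 3 from left to right; the black dash and bar are the group mean and SD. IFNG and IRF1 lie higher in every TAZ library, IFNG-AS1 and IRF2 lower, and IFNGR2 has 1 low control.

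The receptor chains were expressed at similar levels in both groups. IFNGR1 (ENSG00000027697.8, chromosome 6, 137518621 to 137540586), the chain that binds the ligand, had 23.1, 22.6 and 18.0 scaled TPM in the controls and 20.6, 23.2 and 19.7 in the TAZ libraries. The groups overlapped, with a difference of 0.0035 ± 0.17 (limma adjusted p = 0.994). The interval, again of 2 standard errors, ran from -0.34 to 0.34. IFNGR2 (ENSG00000159128.10, chromosome 21, 34775202 to 34851655), the chain needed for signalling, had 8.11, 34.2 and 26.1 in the controls and 26.3, 22.04 and 22.8 in the TAZ libraries. Its difference was 0.26 ± 0.49 (adjusted p = 0.804), with an interval from -0.72 to 1.24.

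Control library 1 alone widened the IFNGR2 controls. Exon 7 of ENST00000290219.6 (34809135 to 34809828), counted from the lowest coordinate and the last to be transcribed, had a depth of 0.367 there, against 86.1 and 30.2 in the other controls and 34.2 to 45.1 in the TAZ libraries. Exon 3 (34793787 to 34793992) of the same library was not low, at 71.5, against 75.9 and 41.2 in the other controls and 28.8 to 48.0 in the TAZ libraries. Without control library 1 the difference turned to -0.32. The IFNGR2 exons overlap those of TMEM50B, on the opposite strand, the longest shared stretch being 181 bases. Use of strand in assigning reads is not stated, and without it reads from shared bases cannot be told apart. Depth was uneven over both receptor genes: 1 to 3 of the 7 exons of IFNGR1 and 3 or 4 of the 7 of IFNGR2 were above 0 in a library, so their levels rest on few exons.

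The receptor-associated kinases stood far apart in level. JAK1 (ENSG00000162434.7, chromosome 1, 65298912 to 65432187), which binds IFNGR1, had 18.0, 22.6 and 16.7 scaled TPM in the controls and 17.1, 19.7 and 17.2 in the TAZ libraries. Its groups overlapped and its difference was -0.07 ± 0.18 (limma adjusted p = 0.854), with an interval from -0.42 to 0.28. JAK2 (ENSG00000096968.8, chromosome 9, 4985033 to 5128183), which binds IFNGR2, had 0.656, 0.795 and 0.659 in the controls against 0.998, 1.64 and 1.302 with TAZ. Every TAZ library was above every control, but the difference of 0.43 ± 0.20, with an interval from 0.028 to 0.84, did not pass the test (adjusted p = 0.322). JAK2 passed the limit on mean TPM through its TAZ values. All of its TPM in every library was on ENST00000381652.3, whose exons do not overlap RP11-39K24.2 on the same strand. The longest stretch shared with that gene, 274 bases, is in annotated JAK2 sequence outside this transcript. Depth was uneven over both kinase genes as well. In a library, 6 to 10 of the 25 exons of the JAK1 transcript ENST00000342505.4 and 2 to 6 of the 25 of JAK2 were above 0.

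IRF1 (ENSG00000125347.9, chromosome 5, 131817301 to 131826490, minus strand) had 6.28, 6.07 and 5.65 scaled TPM in the controls and 86.7, 73.2 and 77.9 in the TAZ libraries. The lowest TAZ library was far above the highest control. The means were 5.998 ± 0.32 and 79.3 ± 6.87 (SD, n = 3), a ratio of 13.2, and the log2 difference was 3.52 ± 0.15. With a pseudocount of 0.1 in place of 1, the difference was 3.70 ± 0.15 for IRF1 and 4.60 ± 0.59 for IFNG, so the order of these members depends on the pseudocount. Aligned sequence on IRF1 amounted to 14.0 to 28.5 kilobases in the controls and 164 to 252 kilobases in the TAZ libraries.

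The transcripts assigned to IRF1 also differed between libraries. The protein-coding transcript ENST00000245414.4 held 99.3%, 92.5% and 94.4% of IRF1 TPM in the TAZ libraries, with levels of 86.1, 67.7 and 73.6 scaled TPM. In the controls it held 0%, 78.8% and 9.16%, with levels of 0, 4.78 and 0.517. ENST00000472045.1, annotated as a retained intron, held 100%, 21.2% and 80.8% in the controls, and at most 3.62% in a TAZ library. Its own level was 6.28, 1.29 and 4.56 in the controls and 0, 2.65 and 1.76 in the TAZ libraries, so these ranges overlapped. The controls were therefore close in their summed IRF1 level and far apart in how it was divided, with control library 2 unlike the other controls. The transcripts share exon sequence, and StringTie, which divides shared reads among them, makes these shares less certain than the sum.

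**Figure D2:**
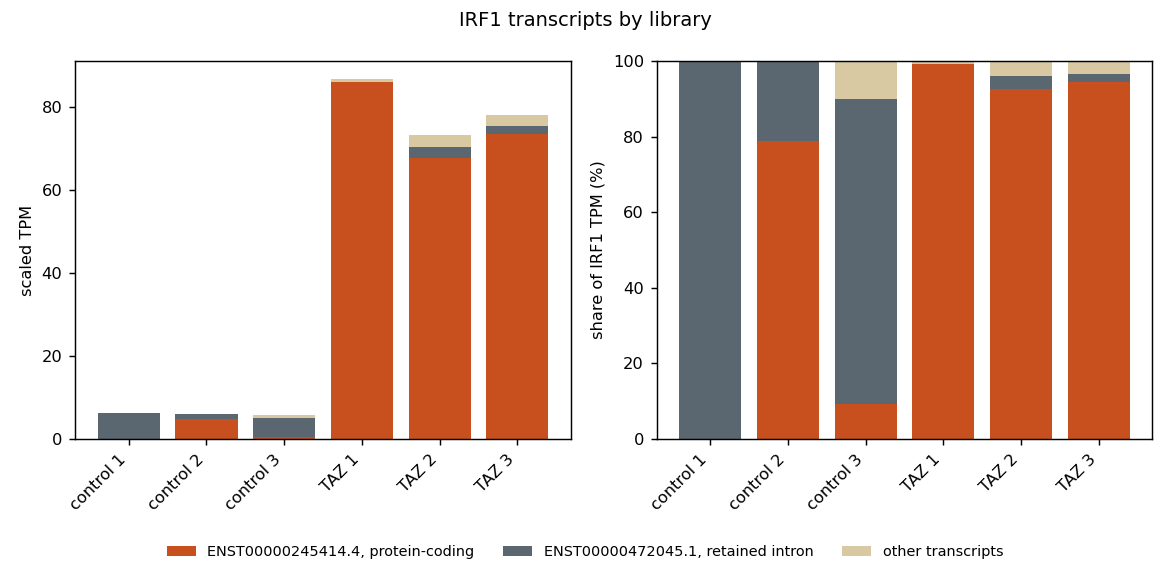
IRF1 transcripts in each library as scaled TPM (left) and as a share of IRF1 TPM in percent (right); colours stand for the protein-coding transcript, the retained-intron transcript and all others together. The protein-coding transcript holds 92.5% or more in each TAZ library and 0% to 78.8% in the controls.

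IRF2 (ENSG00000168310.6, chromosome 4, 185308867 to 185395734) had 49.9, 43.0 and 42.0 scaled TPM in the controls and 32.6, 31.7 and 34.0 in the TAZ libraries. The groups did not overlap, with the TAZ libraries lower, but the difference of -0.44 ± 0.15, with an interval from -0.75 to -0.14, did not pass the test (limma adjusted p = 0.211). IRF2 stood above IRF1 in every control, and IRF1 above IRF2 in every TAZ library. The IRF2 levels rest on few exons: 2 or 3 of the 9 of its main transcript, ENST00000393593.3, were above 0 in a library. SOCS1 (ENSG00000185338.4, chromosome 16, 11348262 to 11350036) had 1.34, 0.830 and 0.669 in the controls and 2.17, 1.11 and 2.00 in the TAZ libraries. Its groups overlapped and its difference was 0.50 ± 0.25 (adjusted p = 0.349), with an interval from -0.0028 to 0.997. SOCS1, with a control mean of 0.945, passed the limit on mean TPM through its TAZ values. Signal lay on 1 of the 2 SOCS1 exons, and aligned sequence was between 0.443 and 2.17 kilobases per library.

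All 9 genes passed the limit on mean TPM, 6 of them with a control mean of at least 1. Over all 19259 tested genes, 3.21% were called (430 higher, 2.23%, and 189 lower, 0.981%). With unscaled TPM, 533 genes were called higher and 85 lower, and the median difference over all tested genes was 0.17 in place of -0.06. Leaving out control library 2, TAZ library 2 or TAZ library 3 gave 285, 216 and 263 genes higher and 68, 53 and 66 lower, and leaving out control library 1 gave 92 lower. Of the 7 members other than IFNG and IRF1, limma called 0, and 2 of them (IFNG-AS1 and IRF2) had an unadjusted p under 0.05. The share of all tested genes under that unadjusted limit is not given here, so nothing is read from those 2. The groups did not overlap for 5 of the 9 members, IFNG, IRF1 and JAK2 with TAZ higher and IFNG-AS1 and IRF2 with TAZ lower. Over all tested genes the groups did not overlap for 24.9%, with TAZ higher for 9.97% and lower for 14.9%. Nothing is read from this count for IFNG and IRF1.

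**Figure D3:**
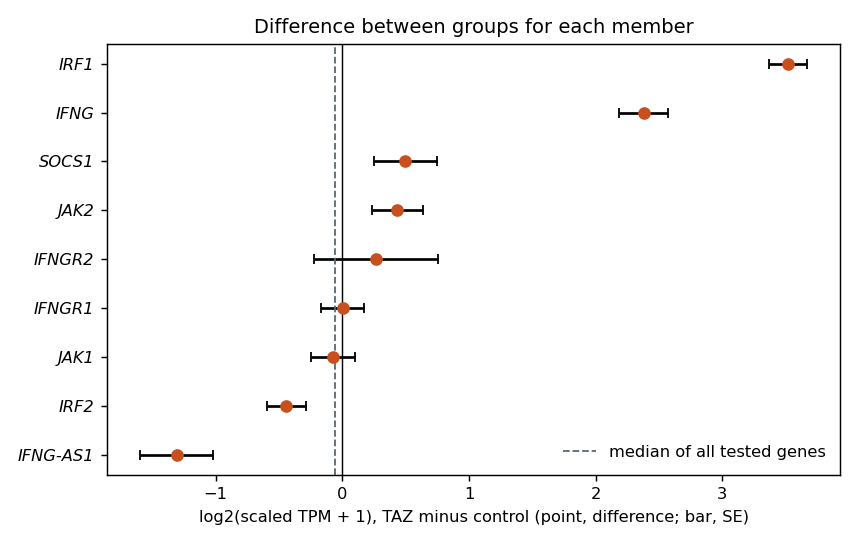
Difference in log2(scaled TPM + 1), TAZ minus control, for each of the 9 genes (points), with the standard error from limma (bars); the dashed line is the median of all tested genes, -0.06. IRF1 (3.52) and IFNG (2.38), which were chosen for their rise, lie far to the right and IFNG-AS1 (-1.31) lies furthest left.

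In the controls the order of mean levels per length was IRF2 (44.97 scaled TPM), IFNGR2 (22.8), IFNGR1 (21.2), JAK1 (19.1), IFNG-AS1 (7.96), IRF1 (5.998), SOCS1 (0.945), JAK2 (0.703) and IFNG (0.136). IFNGR2, IFNGR1 and JAK1 overlapped one another in range, as did IFNG-AS1 with IRF1 and SOCS1 with JAK2, and the low control of IFNGR2 brought its range into that of IFNG-AS1. In the TAZ libraries it was IRF1 (79.3), IRF2 (32.8), IFNGR2 (23.7), IFNGR1 (21.2), JAK1 (18.0), IFNG (4.90), IFNG-AS1 (2.53), SOCS1 (1.76) and JAK2 (1.31). IFNGR2 overlapped IFNGR1 in range, IFNG-AS1 overlapped SOCS1, and SOCS1 overlapped JAK2, while the ranges of IFNGR1 and JAK1 met without overlapping. IRF1 thus moved from the sixth place to the first, and IFNG from the last to the sixth, while the receptor chains and JAK1 kept their order.

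By the distance between centred log2 profiles over the 6 libraries, the genes most like IFNG were KRT8P23 (distance 0.084), KRT8P39, PSG1, KRT8P7 and KRT8P9. KRT8P23 had 0.0932, 0.134 and 0.361 scaled TPM in the controls and 5.14, 4.44 and 4.78 in the TAZ libraries. The KRT8P genes are pseudogenes of keratin 8 that can share reads with their parent and with one another. PSG1, a pregnancy-specific glycoprotein gene, was listed at 0 in every control and had 3.39, 3.22 and 4.34 in the TAZ libraries. Among the genes most like IRF1 were TRIM49B (distance 0.13), CLDN16, RRAD and APOL3. TRIM49B, a member of the tripartite motif family, had 0.770, 0.914 and 0.654 in the controls, against 24.1, 21.7 and 22.6 with TAZ. APOL3 is itself known to be interferon-induced. The distances use the IFNG and IRF1 values by which the set was partly chosen, so they are a description. A shared cause was not tested.

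Downstream of the receptor, 31 of 32 listed signalling genes (STATs, other interferon receptor chains, phosphatases and inhibitors) could be tested, and 4 rose (12.9%, against 2.23% of all tested genes) while 0 fell (0.981% of all). STAT2, a transcription factor of type I interferon signalling, rose from 31.7 ± 4.02 to 105 ± 12.0 scaled TPM (1.70 ± 0.18, limma adjusted p = 0.0042). UBE2L6, which conjugates ISG15, rose from 130 ± 26.0 to 444 ± 148 (adjusted p = 0.0246). SOCS3, a relative of SOCS1, had 3.82, 4.01 and 3.27 in the controls and 12.4, 10.9 and 10.1 in the TAZ libraries (1.37 ± 0.16, adjusted p = 0.0073), while SOCS1 itself did not pass. The list's median difference was -0.07, near the -0.06 of all tested genes. Among the most abundant genes of the list that were not called were the kinase TYK2 (72.8 and 49.9 scaled TPM in the control and TAZ means), the phosphatase PTPN1 (62.5 and 55.8), PIAS3 (54.0 and 48.9) and STAT6 (35.2 and 45.03). Without TAZ library 2, 2 signalling genes rose, the calls of UBE2L6 (adjusted p = 0.0721) and SOCS3 (0.0522) being lost. The UBE2L6 call was also lost without control library 1, control library 2 or TAZ library 3 (adjusted p = 0.0813, 0.103 and 0.0741).

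In the rest of the IRF family, 8 of 10 listed genes were tested; 0 rose and 1 fell, or 12.5% against 0.981% of all tested genes, with a median difference of -0.27. IRF4, which plasma cells and myeloma cells depend on, fell from 443 ± 89.9 to 200 ± 19.2 scaled TPM (-1.13 ± 0.21, limma adjusted p = 0.042). This call was lost without control library 1, control library 2 or any 1 TAZ library, where the adjusted p ranged up to 0.173. IRF3 had 224 and 174 in the group means (adjusted p = 0.412). Among the binding partners of the member IRF2, IRF2BPL had 81.7 and 47.2 (adjusted p = 0.081), IRF2BP1 63.5 and 41.0 (adjusted p = 0.23), and IRF2BP2 22.7 and 26.4 (adjusted p = 0.57).

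Of 53 listed genes known to be induced by interferon gamma, 46 were tested, 42 of them with a control mean of at least 1; 21 rose, or 45.7% of those tested against 2.23% of all tested genes, and 1 fell. The list was chosen with earlier results of these data known. The other 4 tested targets (GBP1, CD274, PARP9 and XAF1) passed the limit on mean TPM through their TAZ values and were all called; of the 42, 17 rose (40.5%), against 1.54% of the 18568 tested genes with such a control mean. The median difference was 1.17, and 1.01 with no limit on abundance. GBP1, a guanylate-binding protein, had 0.843, 0.681 and 0.465 scaled TPM in the controls and 31.8, 25.4 and 16.5 with TAZ (3.90 ± 0.26, limma adjusted p = 9.22e-04). CD274, which encodes the checkpoint ligand PD-L1, had 0.523, 0.438 and 0.531 and then 9.33, 9.83 and 10.4 (2.86 ± 0.16, adjusted p = 4.66e-04). TAP1, a peptide transporter for antigen presentation, rose from 95.2 ± 9.004 to 438 ± 32.3 (adjusted p = 0.0012). APOL3, PARP9, EPSTI1 and the complement inhibitor SERPING1 rose by 3.39, 2.74, 2.68 and 2.22 on the log2 scale. CXCL10, a chemokine of the same response, went against the list: it had 26.3, 20.2 and 14.5 in the controls and 3.08, 3.06 and 3.31 in the TAZ libraries (-2.33 ± 0.23, adjusted p = 0.0037).

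Among the most abundant targets that were not called, the class I genes HLA-B (1.55 ± 0.35, limma adjusted p = 0.077) and HLA-C (1.02 ± 0.26, adjusted p = 0.11) and their partner B2M (1.49 ± 0.35, adjusted p = 0.094) had every TAZ library above every control. HLA genes share reads with one another. Of the 46 tested targets, 37 had a difference above 0, against 8643 of all 19259 tested genes. The 37 include GBP1, CD274, PARP9 and XAF1, which passed the limit on mean TPM through their TAZ values. ICAM1 (-1.24 ± 0.30, limma adjusted p = 0.097), HLA-DRA (-0.97 ± 0.22, 0.085) and NAMPT (-0.52 ± 0.17, 0.187) had every TAZ library below every control. They were not called either, and they are named after their values were seen. CD74, the invariant chain of class II, had 614 and 579 scaled TPM (adjusted p = 0.832). The class II activator CIITA, named after its values were seen, had 10.9, 9.84 and 6.39 in the controls and 6.48, 4.86 and 5.49 in the TAZ libraries (adjusted p = 0.258). SERPING1 was not called without TAZ library 1 (adjusted p = 0.0521) or TAZ library 2 (0.0645), and HLA-B was called without TAZ library 2 (0.0335). With unscaled TPM, HLA-B, HLA-C and B2M were called (adjusted p = 0.0231, 0.0197 and 0.0233), and 27 targets rose. Without control library 2, 12 targets rose, and without TAZ library 2, 11; without control library 3, 20 did.

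**Figure D4:**
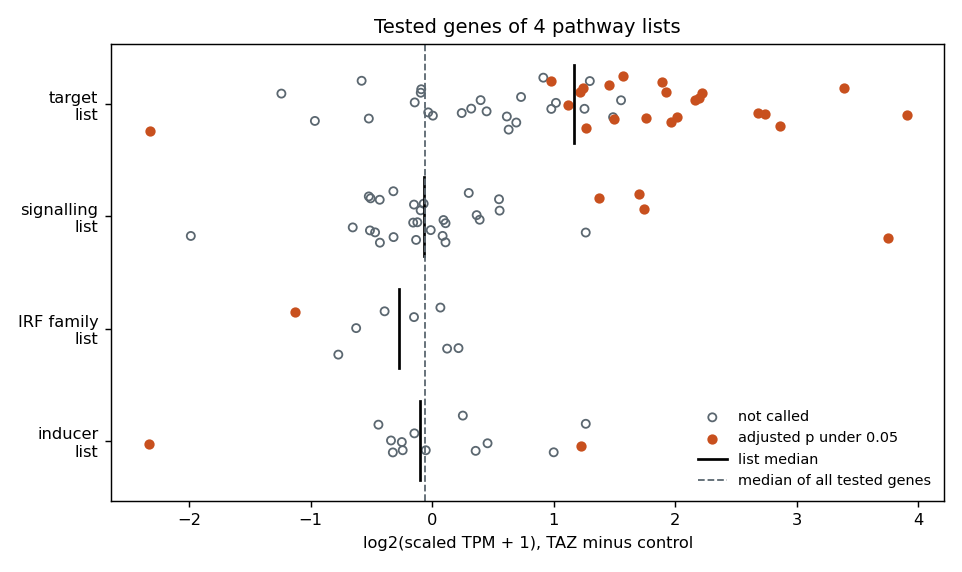
Difference in log2(scaled TPM + 1), TAZ minus control, of each tested gene (circles; vertical scatter has no meaning) in the target, signalling, IRF family and inducer lists; filled circles passed an adjusted p of 0.05, black bars are list medians and the dashed line is the median of all tested genes. The target list has a median of 1.17, with 37 of 46 tested genes above 0 (8643 of all 19259 tested genes) and CXCL10 lowest at -2.33. The other list medians lie between -0.27 and -0.07.

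Of 20 listed factors and receptors that drive IFNG transcription in lymphocytes, 14 were tested; 1 rose and 1 fell, 7.14% each against 2.23% and 0.981% of all tested genes, with a median difference of -0.10. IL12RB1, a chain of the IL-12 receptor, had 0.598, 0.587 and 0.387 scaled TPM in the controls and 2.61, 2.49 and 2.53 with TAZ (1.22 ± 0.18, limma adjusted p = 0.0168). It passed the limit on mean TPM through its TAZ values, and of the 13 tested inducers with a control mean of at least 1, 0 rose. The IL12RB1 call was lost without control library 2 or any 1 TAZ library, and without control library 3, 2 listed genes rose. IL21R, the IL-21 receptor, had 20.003, 13.5 and 16.9 and then 3.11, 2.36 and 2.11 (-2.33 ± 0.21, adjusted p = 0.0025). IL2RG, PRDM1, BHLHE40 and BATF, the most abundant of the others, were not called. STAT4, which carries the IL-12 signal, was listed at 0 in all 6 libraries, and TBX21, the T-bet gene, had at most 0.165 scaled TPM in any library; both are named here after their values were seen.

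Markers of cells that commonly make interferon gamma were mostly near 0. Of 20 T and natural killer cell markers, 3 had a mean of at least 1 scaled TPM (CD247, CD8A and GZMA), and NCR1, NKG7 and GZMK were listed at 0 in all 6 libraries. CD3D was at most 0.0667. The summed level of the list was 18.3 to 23.5 in the controls and 24.3 to 28.4 in the TAZ libraries, most of it from CD247. GZMA, a granzyme gene, was listed at 0 in every control and had 3.59, 3.72 and 2.08 with TAZ (2.02 ± 0.24 on the log2 scale). GZMA passed the limit on mean TPM through its TAZ values, as IFNG did, and its part in the IFNG result was not tested. The summed level of 10 myeloid markers was 5.10 to 5.87 in the controls and 1.99 to 2.13 in the TAZ libraries, and 1 of them, CD14, had a mean of at least 1 and fell. Of 11 plasma cell markers found, 10 had a mean of at least 1; SDC1, SLAMF7 and IRF4 fell and 0 rose (0.981% of all tested genes fell), with a summed level of 2442 to 3162 in the controls and 2857 to 3253 in the TAZ libraries. In bulk RNA, fewer expressing cells and less RNA per cell cannot be told apart, for IFNG or any other gene here.

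Within 200 kb of the members lay 121 other genes, of which 47 were tested; 3 rose (6.38%, against 2.23% of all tested genes) and 2 fell (4.26%, against 0.981%). Next to IRF1, at 5.57 kb, C5orf56 rose from 1.78, 1.36 and 1.48 scaled TPM to 6.37, 7.16 and 5.23 (1.51 ± 0.18, limma adjusted p = 0.008). RLN2, a relaxin gene 172 kb from JAK2, rose from 2.62 ± 0.78 to 62.7 ± 4.48 (adjusted p = 3.22e-04). HNRNPA1P70, a pseudogene inside the span of IFNG-AS1 and on the same strand, had 5.71, 4.07 and 4.25 in the controls and 1.15, 1.19 and 1.11 in the TAZ libraries (-1.39 ± 0.18, adjusted p = 0.0112), the same direction as IFNG-AS1. Like the KRT8P genes, HNRNPA1P70 can share reads with its parent gene, and a link to IFNG-AS1 was not tested. Near IRF2, RP11-162O12.2 was higher (2.63 ± 0.50, adjusted p = 0.047) and RP11-290F5.1 lower (-1.29 ± 0.23, adjusted p = 0.038). The cytokine genes IL26 and IL22, which neighbour IFNG and are named after their values were seen, were under 1 scaled TPM in all 6 libraries. RMI2, whose span contains SOCS1, had 61.3 and 43.1 in the group means (adjusted p = 0.163), and SON, GART and AP000304.12 near IFNGR2 were not called. The calls near IRF2 were lost without control library 1, control library 2 or any 1 TAZ library. C5orf56 was not called without TAZ library 2 (adjusted p = 0.0554), nor HNRNPA1P70 without TAZ library 2 or 3 (0.0669 and 0.0652). Without TAZ library 2, 1 neighbour rose and 0 fell; the falls numbered 0 without TAZ library 3 and 1 without control library 1, control library 2 or TAZ library 1.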

How the data were processed

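Polyadenylated RNA of KMM1 cells was measured in 3 control and 3 TAZ libraries, grouped by the labels. Per the submitters' processing notes, STAR 2.3.0, Bowtie2 2.0.0 and StringTie 1.3.3b were used with the hg19 build. Per the file headers, StringTie ran once per library on a supplied annotation; the authors deposited coverage, FPKM and TPM for 195984 transcripts. The annotation release and strand use are not given in the sources used here.

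TPM was summed per gene and scaled by the median of ratios over 28148 genes above 0 in every library (factors 0.873 to 1.23). Genes with a mean of at least 1 were tested on log2(TPM + 1) with limma 3.58.1 (trend and robust) in R 4.3.3, with group as the only term. Aligned bases were recovered from deposited coverage and FPKM. The fit was tested on simulated data. Members and lists were chosen with earlier results of these data known. Named were all members; per list up to 8 called genes by size and 4 uncalled by abundance; called neighbours and 4 others; and 5 genes with the most similar profile to IFNG and to IRF1. Transcript types are from GENCODE 29. A total of 13 alternatives were run. A few genes that these rules name are not reported here.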

Additional observations from a re-analysis of the deposited data

How the results depend on the processing

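IFNG ranged from 2.28 to 4.60 on the log2 scale over 12 alternatives (not tested at a limit of 5 TPM), the highest with a pseudocount of 0.1, and IRF1 from 3.45 to 3.76 over 13. With the replicate number as a block, 197 genes were higher and 34 lower, with 2 signalling genes, 10 targets, 0 inducers and 1 neighbour higher, and 0 IRF family genes and 0 neighbours lower; no member was called. No pairing by number was seen: deviations of same-numbered libraries correlated at 0.0037, -0.025 and -0.055, and control library 2 correlated best with TAZ library 3, at 0.071. With 3 libraries per group, a weak pairing or one limited to some genes could have been missed. Without the limit on abundance 62 genes were lower, with 0 IRF family genes and 1 neighbour. At a limit of 5 TPM 0 inducers were higher and 0 neighbours lower. Without scaling 85 genes were lower, with 0 IRF family genes and 1 neighbour, and 2 inducers were higher, as with upper quartile scaling. Leaving out 1 library gave 216 to 509 genes higher and 53 to 261 lower, 2 to 4 signalling genes higher and 0 to 1 lower, 0 to 1 IRF family genes lower, 11 to 20 targets higher, 0 to 2 inducers higher, and 1 to 3 neighbours higher and 0 to 2 lower. Signs turned only for genes that were not called. Without scaling JAK1 was 0.18, PTPN1 0.10, PIAS3 0.12, CD74 0.17, IL2RG 0.011, BATF 0.11 and SON 0.20. Leaving out 1 library gave IFNGR1 -0.11 to 0.067 (below 0 at -0.11 without control library 3, -0.064 without TAZ library 2), IFNGR2 -0.32 (without control library 1) to 0.65, JAK1 -0.17 to 0.048 (without control library 2), TYK2 -1.07 to 0.0052 (without TAZ library 2), BATF -0.39 to 0.016 (without TAZ library 3), SON -0.26 to 0.099 (above 0 at 0.099 without control library 1, 0.029 without TAZ library 1) and GART -0.088 to 0.17 (below 0 at -0.065 without control library 3, -0.088 without TAZ library 3). The cause of these shifts was not tested. The depth behind IFNG, SOCS1 and JAK2 was at most 5.50 kilobases aligned per library. With the pseudocount of 1, the standard errors of IFNG (0.20), JAK2 (0.20) and SOCS1 (0.25) compare with a median of 0.24 over all tested genes. With a pseudocount of 0.1 they were larger, at 0.59 for IFNG, 0.40 for JAK2 and 0.43 for SOCS1.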
